A study of Homo sapiens with 12 samples.

Results

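The genes described here are the MAPK feedback phosphatases DUSP1, DUSP4, DUSP5, DUSP6 and DUSP10 and the Sprouty-family genes SPRY1, SPRY2, SPRY4, SPRED1 and SPRED2. They were taken by annotated symbol from the array table, each has 1 probe set, and together they are 10 of the 18404 genes tested. The arrays hold RNA of A673, an Ewing sarcoma cell line driven by the EWS-FLI1 fusion, in 6 groups of 2 arrays. FLI1 shRNA and its control, lacZ shRNA, were delivered by lentivirus with puromycin selection and are labelled 48 h, and the other groups were untreated cells labelled time 0, cells with DMSO for 24 h, and cells with 5 nM or 50 nM actinomycin D for 24 h. All groups are this 1 line and so 1 tumour's cells, 1 shRNA each stands for the knock-down and its control, and the untreated arrays are no time-matched control for either shRNA. The design asks whether a low dose of actinomycin D, a DNA-binding drug that blocks transcription, acts on gene expression as loss of EWS-FLI1 does, with the high dose beside it.

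Growth factor receptors signal through RAS, RAF and MEK to the kinase ERK, and parallel cascades lead to the kinases p38 and JNK. ERK switches on genes that in turn restrain it. The dual-specificity phosphatases (DUSP) remove the activating phosphates from these kinases. Sprouty proteins hold back RAS and RAF activation below receptors, and SPRED proteins recruit the RAS-inactivating protein neurofibromin, the product of NF1, to the membrane. Transcripts of several of these brakes are short-lived and follow ERK activity closely, so they are widely used as a readout of the pathway.

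Promoter windows of RefSeq, from 250 bases before to 50 bases after the most upstream start listed, were found for 8 members, all but DUSP4 and DUSP5. For SPRY4 the listed start lies inside the span of the gene given below, so its window is counted but not printed. The window of SPRY1, whose rise after FLI1 knock-down is the largest of the members, is also counted but not printed. The bases before the start are printed for 4 genes as examples, 5′ to 3′ on the gene's strand, all minus here, with motif matches in capitals. They lie at chr5:172771196-172771445 (DUSP1), chr12:89352502-89352751 (DUSP6), chr13:80341127-80341376 (SPRY2) and chr2:65432600-65432849 (SPRED2).
DUSP1: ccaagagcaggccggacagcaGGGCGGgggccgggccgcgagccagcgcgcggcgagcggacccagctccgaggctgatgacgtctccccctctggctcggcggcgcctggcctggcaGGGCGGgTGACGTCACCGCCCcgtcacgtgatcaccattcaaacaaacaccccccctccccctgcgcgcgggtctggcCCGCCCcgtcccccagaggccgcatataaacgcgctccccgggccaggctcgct
DUSP6: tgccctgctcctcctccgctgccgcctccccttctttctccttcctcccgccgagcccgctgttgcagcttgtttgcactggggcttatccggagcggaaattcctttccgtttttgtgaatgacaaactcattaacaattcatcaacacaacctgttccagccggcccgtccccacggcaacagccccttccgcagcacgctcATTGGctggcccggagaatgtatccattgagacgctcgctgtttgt
SPRY2: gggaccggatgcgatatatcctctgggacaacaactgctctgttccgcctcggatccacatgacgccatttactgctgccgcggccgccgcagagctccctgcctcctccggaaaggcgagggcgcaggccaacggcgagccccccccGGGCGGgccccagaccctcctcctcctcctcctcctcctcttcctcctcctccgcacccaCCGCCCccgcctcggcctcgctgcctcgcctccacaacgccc
SPRED2: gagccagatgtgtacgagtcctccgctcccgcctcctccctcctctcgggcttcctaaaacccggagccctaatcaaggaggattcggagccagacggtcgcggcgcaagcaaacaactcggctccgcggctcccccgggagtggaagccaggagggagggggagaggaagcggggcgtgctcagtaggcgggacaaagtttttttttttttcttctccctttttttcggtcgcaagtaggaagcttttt

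Searched on both strands, the ETS-type letters CCGGAAG and the tandem pair GGAAGGAA, as bound by FLI1 and EWS-FLI1, were in none of the 8 windows, against 10.6% and 3.59% of all 27305 promoters. The full cyclic AMP response element TGACGTCA was found in DUSP1, 125 bases before its start, and in 1.97% of all promoters. It touches a GC box (GGGCGG, or CCGCCC on the other strand), a motif found in 6 members, DUSP1, DUSP10, SPRY2, SPRY4, SPRED1 and SPRED2 (in SPRED2 only after the start, so not printed), and in 44.5% of all promoters. The letters CCAAT were in DUSP6 and DUSP10, and in 35.7% of all promoters, and the AP-1 letters TGANTCA in no member and in 7.72%. GC, the base step that actinomycin D prefers, occurred 43 times in the window of SPRED1, 40 in DUSP1, 38 in SPRY2, 30 in DUSP6, 29 in SPRY4, 25 in SPRED2, 23 in DUSP10 and 16 in SPRY1, against a median of 24 over all promoters. These matches are descriptions of letters, and binding at them was not measured.

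In RefSeq (GRCh38.p14) the members range widely in length, and the 2 SPRED genes stand apart. DUSP1 (chr5:172768096-172771195) spans 3.1 kb, SPRY2 (chr13:80335976-80341126) 5.15 kb, DUSP6 (chr12:89347235-89352501) 5.27 kb and SPRY1 (chr4:123396795-123403760) 6.97 kb. DUSP5 (chr10:110497907-110511533) spans 13.6 kb, SPRY4 (chr5:142310430-142325021) 14.6 kb, DUSP4 (chr8:29333064-29350684) 17.6 kb and DUSP10 (chr1:221701424-221742089) 40.7 kb. SPRED1 (chr15:38252836-38357249) and SPRED2 (chr2:65307175-65432599) span 104 kb and 125 kb.

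Array medians lay between 6.67 and 6.83 on the log2 scale, and within groups the array pairs correlated at 0.9935 to 0.9962. The study's methods give DMSO and 5 nM as duplicate treatments, and for the other groups the sources used here do not say whether the arrays came from separate cultures. P-values measure only the spread between arrays, which may be technical. FLI1 itself was 7.30 and 7.08 with FLI1 shRNA, against 8.63 and 8.45 with lacZ shRNA, a fall of 1.35 (SE 0.09, adjusted p = 5.39e-06) that left 39.2% of the signal. All 7 measured Ewing sarcoma markers lay above the median of all genes in every group except FLI1 shRNA, where 6 did, and none of 5 blood and none of 5 endothelial markers did in any group. The Ewing marker below the median was FLI1, the shRNA target itself, at a mean of 7.19. Of 6 epithelial markers 2 did, KRT8 and KRT18, and of 6 fibroblast markers 4. The summed fibroblast signal was 4272 to 4487 with FLI1 shRNA and 3039 to 3103 with lacZ shRNA, and 4421 to 4521 at 5 nM, 3743 to 3788 at 50 nM and 3114 to 3208 with DMSO. These rises came largely from different genes. COL1A2 was 10.55 and 10.42 with FLI1 shRNA, against 9.22 and 9.20 with lacZ shRNA, and THY1 10.65 and 10.63, against 10.88 and 10.80. At 5 nM COL1A2 was 9.15 and 9.12, against 9.23 and 9.24 with DMSO, and THY1 11.65 and 11.60, against 10.98 and 10.89. The summed Ewing signal was 20700 to 20960 with FLI1 shRNA and 28480 to 28740 with lacZ shRNA, and 23420 to 23830 at 5 nM and 26900 to 27070 with DMSO. The summed endothelial signal was 341.9 on both FLI1 shRNA arrays and 239 to 267.9 with lacZ shRNA. Only 1 of these 5 markers was called higher there, KDR, at 7.33 and 7.37 against 5.42 and 5.59. PECAM1 was called lower, at 5.64 and 5.83 against 6.20 and 6.37, and the other 3 were not called. The part of these markers in the results below was not tested. As in any bulk RNA, fewer cells of a kind and less RNA per cell cannot be told apart, and the normalization gives all arrays much the same distribution, which hides any fall in RNA that all genes had in common.

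**Figure D1:**
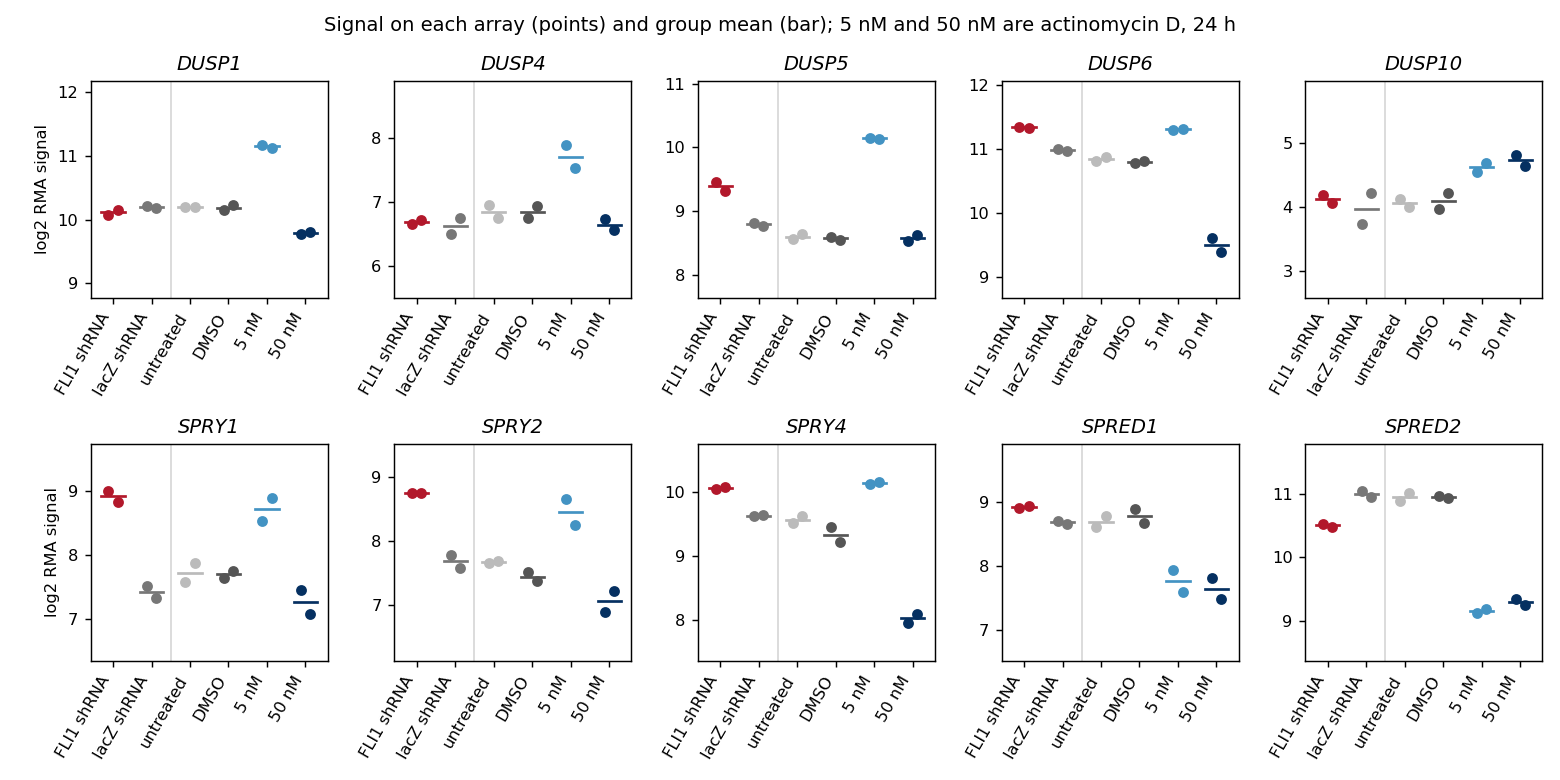
Log2 RMA signal of each member (y axis, a 1-gene scale in each panel) on each array (points) with the group mean (bar), by group along the x axis: FLI1 shRNA, lacZ shRNA, untreated, DMSO, and 5 nM and 50 nM actinomycin D. At 5 nM the DUSP and SPRY genes sit above DMSO and the SPRED genes sit under it, while at 50 nM DUSP6 (9.60 and 9.39) and SPRY4 (7.95 and 8.09) are the lowest of all groups.

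After FLI1 knock-down the 3 Sprouty genes and the ERK phosphatases DUSP5 and DUSP6 rose, SPRED2 fell, and the other 4 members did not pass the test (adjusted p under 0.05). SPRY1 rose 2.81-fold and SPRY2 2.11-fold, over 2-fold with an adjusted p under 0.01 as 1.21% of all genes were, and the other rises were below 2-fold. That is 5 of 10 members higher, against 14.6% of all genes, and 1 lower, against 9.28%. The median change of the members was 0.30, and that of all genes −0.01 (log2 fold change throughout).

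SPRY1, which restrains RAS signalling below receptors, was 9.0 and 8.83 with FLI1 shRNA, against 7.52 and 7.33 with lacZ shRNA (change 1.49, SE 0.16, adjusted p = 7.12e-05). SPRY2, which also binds the ubiquitin ligase CBL, was 8.75 and 8.75 with FLI1 shRNA, against 7.78 and 7.58 with lacZ shRNA (1.08, SE 0.14, adjusted p = 0.000269). Both lay over 0.9 log2 units above their control arrays, and they stood at percentiles 99.7 and 99 of all changes. SPRY4 was 10.05 and 10.08 with FLI1 shRNA, against 9.62 and 9.64 with lacZ shRNA, a smaller rise (0.43, SE 0.09, adjusted p = 0.00538). DUSP5, a nuclear phosphatase specific to ERK, was 9.46 and 9.32 with FLI1 shRNA, against 8.82 and 8.77 with lacZ shRNA (0.59, SE 0.07, adjusted p = 0.000231). In none of these did the groups overlap, as in 63.1% of all genes in this comparison. DUSP6, its cytoplasmic counterpart, was 11.35 and 11.34 with FLI1 shRNA, against 11.01 and 10.98 with lacZ shRNA (0.35, SE 0.08, adjusted p = 0.00864). This rise was lost without FLI1 shRNA array 1 (0.34, adjusted p = 0.0584) or without lacZ shRNA array 2 (0.33, adjusted p = 0.0561).

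SPRED2 went the other way, at 10.53 and 10.48 with FLI1 shRNA, against 11.04 and 10.95 with lacZ shRNA (−0.49, SE 0.08, adjusted p = 0.000799), which left 71% of the signal. Its relative SPRED1, at 8.92 and 8.95 with FLI1 shRNA, against 8.71 and 8.66 with lacZ shRNA, did not pass (0.24, 95% interval −0.06 to 0.55, adjusted p = 0.237). DUSP1, a nuclear phosphatase of all 3 kinase classes, was 10.08 and 10.16 with FLI1 shRNA, against 10.22 and 10.18 with lacZ shRNA (−0.08, 95% interval −0.23 to 0.07). The upper end of that interval is below the rise of DUSP5. DUSP4, a nuclear relative of it, had 0.06 (−0.24 to 0.37), and DUSP10, which prefers p38 and JNK, 0.15 (−0.17 to 0.47).

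At 5 nM actinomycin D all 10 members changed, and not all in the same direction. All 5 DUSP and all 3 SPRY members rose against DMSO, led by DUSP5 at 2.96-fold, and both SPRED members fell, SPRED2 to 29% and SPRED1 to 49.4% of DMSO. Outside the members, the Sprouty-family genes SPRED3 (0.11) and SPRY3 (0.24) were not called. Of 5 other MAPK phosphatases 4 rose and none fell. With the ribosomal protein centring described below, 1 of these phosphatases was higher and 1 lower. Over 2-fold with an adjusted p under 0.01 were 3 rises of members (DUSP5, SPRY1 and SPRY2), against 2.64% of all genes. Both SPRED falls were too, against 7.86%. In all, 8 of 10 members were higher, against 30.3% of all genes, and 2 lower, against 23%. The median of the members was 0.84, and that of all genes 0.12.

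DUSP5 had 10.15 and 10.13 at 5 nM and 8.60 and 8.55 with DMSO (1.57, SE 0.07, adjusted p = 3.7e-08). For DUSP1 the values were 11.17 and 11.13 at 5 nM and 10.14 and 10.23 with DMSO (0.96, SE 0.07, adjusted p = 6.17e-07). These 2 nuclear phosphatases had the smallest SE of the 10 genes. DUSP4 had 7.90 and 7.53 at 5 nM and 6.75 and 6.94 with DMSO (0.86, SE 0.14, adjusted p = 0.000308). DUSP6 rose least among the well-detected members, with 11.31 and 11.32 at 5 nM and 10.79 and 10.81 with DMSO (0.51, SE 0.08, adjusted p = 0.000255).

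The Sprouty genes moved by similar amounts. SPRY1 had 8.52 and 8.89 at 5 nM and 7.64 and 7.74 with DMSO (1.02, SE 0.16, adjusted p = 0.000234). SPRY2 had 8.65 and 8.25 at 5 nM and 7.50 and 7.38 with DMSO (1.01, SE 0.14, adjusted p = 0.000103). In SPRY4 the arrays read 10.13 and 10.16 at 5 nM and 9.45 and 9.21 with DMSO (0.82, SE 0.09, adjusted p = 1.93e-05). No 5 nM array of these genes overlapped DMSO, as in 75.4% of all genes.

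DUSP10 was dim, 4.55 and 4.69 at 5 nM and 3.97 and 4.22 with DMSO, and its rise of 0.53 (SE 0.15, adjusted p = 0.0106) did not hold without 5 nM array 2 (0.46, adjusted p = 0.0689) or without DMSO array 1 (0.40, adjusted p = 0.0957). Of the 2409 genes with a mean log2 signal under 5, to which it belongs, 13.7% were higher at 5 nM and 19.6% at 50 nM.

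SPRED2 had 9.12 and 9.20 at 5 nM and 10.96 and 10.94 with DMSO (−1.79, SE 0.08, adjusted p = 1.79e-08). SPRED1 had 7.95 and 7.59 at 5 nM and 8.90 and 8.68 with DMSO (−1.02, SE 0.14, adjusted p = 8.65e-05). Both are the NF1-recruiting members, and both lost over 1 log2 unit. With each array centred on 57 ribosomal protein genes, which put the median of all genes at −0.26, the falls remained (−2.16 for SPRED2 and −1.40 for SPRED1) and so did 6 rises, DUSP5 (1.19), SPRY1 (0.64), SPRY2 (0.63), DUSP1 (0.58), DUSP4 (0.49) and SPRY4 (0.44). DUSP6 (0.13, adjusted p = 0.178) and DUSP10 (0.15, adjusted p = 0.443) then did not pass. Over all genes that centring gave 1574 higher and 8654 lower, in place of 5581 and 4234.

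**Figure D2:**
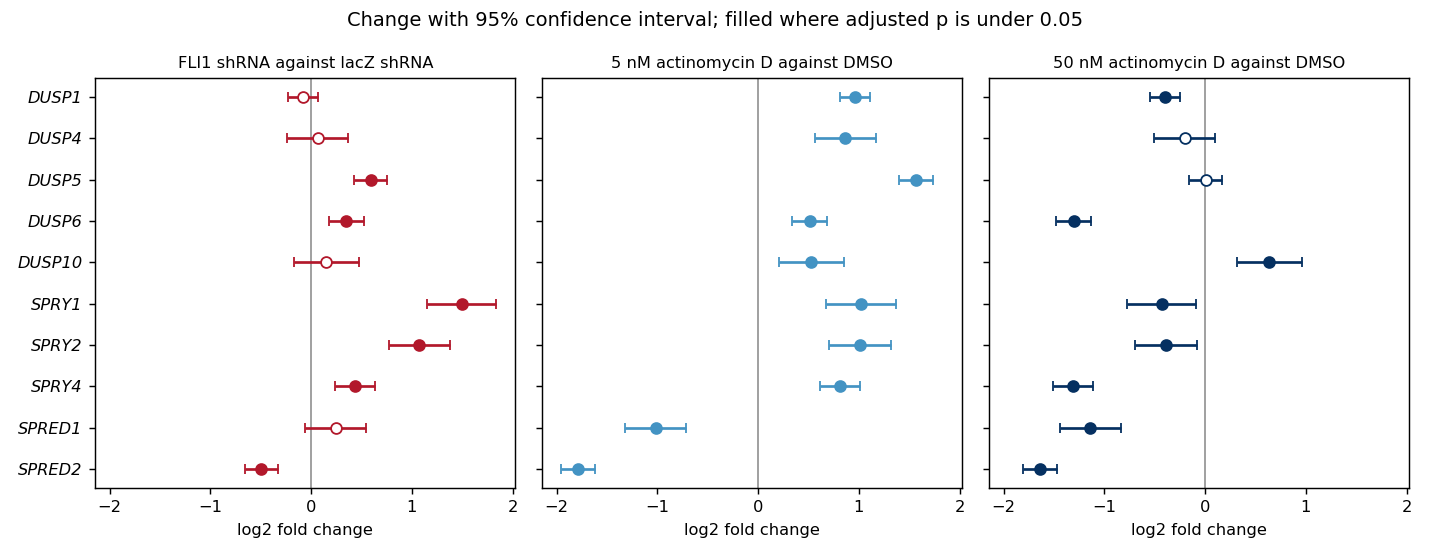
Log2 fold change of each member (x axis) with its 95% confidence interval, filled where the adjusted p is under 0.05, in FLI1 shRNA against lacZ shRNA, 5 nM against DMSO and 50 nM against DMSO. SPRED2 is left of 0 in all 3 panels (−0.49, −1.79 and −1.64), and SPRY4 and DUSP6 are right of 0 in the first 2 panels and at −1.31 in the third.

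At 50 nM most of the same genes were below DMSO. SPRED2, SPRED1, DUSP6 and SPRY4 fell by more than 2-fold, DUSP1, SPRY1 and SPRY2 fell by less, DUSP10 rose, and DUSP4 and DUSP5 did not pass. That is 7 of 10 lower, against 23.3% of all genes, 4 of them by over 2-fold with an adjusted p under 0.01, against 5.38%, and 1 higher, against 25.8%. The median of the members was −0.41, against 0.10 over all genes. This comparison and the one at 5 nM share their DMSO arrays.

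DUSP6 had 9.60 and 9.39 at 50 nM and 10.79 and 10.81 with DMSO, which left 40.5% of the signal (−1.31, SE 0.08, adjusted p = 4.79e-07). SPRY4 had 7.95 and 8.09 at 50 nM and 9.45 and 9.21 with DMSO, which left 40.4% (−1.31, SE 0.09, adjusted p = 1.11e-06). These 2 ERK brakes stood above DMSO at the low dose and well below it at the high one. SPRED2 had 9.35 and 9.26 at 50 nM and 10.96 and 10.94 with DMSO (−1.64, SE 0.08, adjusted p = 9.38e-08). SPRED1 had 7.81 and 7.49 at 50 nM and 8.90 and 8.68 with DMSO (−1.14, SE 0.14, adjusted p = 6.31e-05). Both SPRED genes were near their 5 nM values.

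DUSP1 fell to 9.78 and 9.80 at 50 nM, against 10.14 and 10.23 with DMSO (−0.40, SE 0.07, adjusted p = 0.000746). SPRY1 had 7.44 and 7.08 at 50 nM and 7.64 and 7.74 with DMSO (−0.43, SE 0.16, adjusted p = 0.0406), and SPRY2 had 6.89 and 7.21 at 50 nM and 7.50 and 7.38 with DMSO (−0.39, SE 0.14, adjusted p = 0.0383). Each of the 2 Sprouty falls depended on a single 50 nM array and on both DMSO arrays. Without 50 nM array 2 the change of SPRY1 was −0.25 (adjusted p = 0.271), without 50 nM array 1 that of SPRY2 was −0.23 (adjusted p = 0.258), and neither passed without DMSO array 1 (−0.49, adjusted p = 0.0912, for SPRY1 and −0.32, adjusted p = 0.185, for SPRY2) or DMSO array 2 (−0.38, adjusted p = 0.159, for SPRY1 and −0.45, adjusted p = 0.067, for SPRY2). With the replicate number as a block SPRY1 did not pass either (adjusted p = 0.0528). DUSP5, the strongest riser at 5 nM, was back at 8.53 and 8.63 at 50 nM, against 8.60 and 8.55 with DMSO (0.00, 95% interval −0.16 to 0.17). DUSP4 had 6.73 and 6.56 at 50 nM and 6.75 and 6.94 with DMSO (−0.20, interval −0.51 to 0.10). DUSP10 was 4.81 and 4.65 at 50 nM and 3.97 and 4.22 with DMSO (0.63, SE 0.15, adjusted p = 0.00463).

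In the direct contrast of doses 7 members were lower at 50 nM than at 5 nM, each by more than 2-fold, against 6.65% of all genes lower by over 2-fold with an adjusted p under 0.01 and 23.1% lower at any size. SPRY4 differed most, by −2.13 (SE 0.09, adjusted p = 2.17e-08), followed by DUSP6 (−1.82), DUSP5 (−1.56), SPRY1 (−1.45), SPRY2 (−1.40), DUSP1 (−1.36) and DUSP4 (−1.07). Not called were SPRED1 (−0.12, 95% interval −0.42 to 0.18), SPRED2 (0.15, −0.02 to 0.31) and DUSP10 (0.11, −0.21 to 0.43). Every member that rose at 5 nM, apart from the dim DUSP10, was lower at 50 nM, and for the SPRED genes the intervals hold no dose difference over 0.42. After ribosomal protein centring SPRED2 was called higher at 50 nM (0.38, adjusted p = 0.00146), and after a repeat of quantile normalization too (0.22, adjusted p = 0.0358).

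Gene length moved with the change at 5 nM across protein-coding genes, more steeply among the brighter ones. Among protein-coding genes with a mean log2 signal over 8, the median change at 5 nM was 0.38 for 1538 genes under 10 kb, 0.21 for 2160 genes of 10 to 30 kb, −0.31 for 2481 genes of 30 to 100 kb and −1.18 for 1271 genes of 100 kb or more, of which 91.3% were lower. At 50 nM the same medians were 0.15, −0.02, −0.16 and −0.29. Across these 7450 genes Spearman correlation of span and change was −0.706 at 5 nM, −0.279 at 50 nM and 0.072 after FLI1 shRNA. This is a description over genes of the same arrays, which are not independent replicates.

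Most members that rose at 5 nM stood high among genes of like length. Within their length range, with genes of every signal level, DUSP5 was at percentile 99.4 of changes at 5 nM, SPRY1 at 95, SPRY2 at 94.9, DUSP4 at 94.4, DUSP10 at 94.3, DUSP1 at 94.1 and SPRY4 at 93.3, with DUSP6 lower at 78.6. Among genes of 100 kb or more, whose median was −0.49 at any level, SPRED1 was at percentile 31.8 and SPRED2 at 9.9. At 50 nM DUSP6 was at percentile 1.1, SPRED2 at 1.2, SPRY4 at 2.6 and SPRED1 at 5.7 of their ranges. A trend with length fitted over genes of every level and taken out of the 5 nM values cost no member its call, DUSP5 keeping 1.31, DUSP6 0.21 (adjusted p = 0.0431), SPRED1 −0.68 and SPRED2 −1.42.

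That trend and those percentiles leave out signal level, and the trend was steeper among brighter genes. Among genes with a mean log2 signal over 8, SPRED1 was at percentile 59.3 of the 1271 genes of 100 kb or more at 5 nM, so it fell less than their median, and SPRED2 was at percentile 20.5. DUSP5 was at 99.4, SPRY4 at 91, DUSP1 at 89.3 and DUSP6 at 63.6 of their own ranges. With the trend fitted over and taken out of these brighter genes alone, a setting chosen after seeing the data, SPRED1 at 5 nM was −0.17 (SE 0.13, adjusted p = 0.247) and DUSP6 0.11 (SE 0.07, adjusted p = 0.165), and neither passed. SPRED2 (−0.80, adjusted p = 6.49e-07), DUSP5 (1.28), DUSP1 (0.54) and SPRY4 (0.54) did. At 50 nM the 5 falls among these genes remained, DUSP6 (−1.39), SPRED2 (−1.33), SPRY4 (−1.27), SPRED1 (−0.84) and DUSP1 (−0.56).

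Knock-down and low dose, which use separate arrays, differed in 6 members when the 2 effects were set against each other in the same fit. The FLI1 shRNA effect was below the 5 nM effect in DUSP1 (−1.04, SE 0.10, adjusted p = 7.84e-06), DUSP5 (−0.97), DUSP4 (−0.80) and SPRY4 (−0.39), and above it in SPRED2 (1.29, SE 0.11, adjusted p = 3.72e-06) and SPRED1 (1.26). Over all genes 23.7% were below and 22.8% above. For SPRY1 the difference was 0.47 (95% interval −0.01 to 0.96), for SPRY2 0.07 (−0.37 to 0.50), for DUSP6 −0.16 (−0.41 to 0.09) and for DUSP10 −0.38 (−0.83 to 0.08), none past the threshold. The sign for SPRY4 turned with ribosomal protein centring (0.06, adjusted p = 0.689), under which DUSP1 (−0.60) and DUSP5 (−0.53) stayed called, SPRY1 (0.92) and SPRY2 (0.51) were called above and DUSP4 (−0.35) was not called.

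The controls moved none of the members past the threshold. Against untreated cells, DMSO gave changes between −0.24 (SPRY4) and 0.09 (SPRED1), and lacZ shRNA between −0.30 (SPRY1) and 0.19 (DUSP5). Over all genes, limma called 0.00543% higher and 0% lower for DMSO, and 0.815% higher and 2.26% lower for lacZ shRNA. At a limma p under 0.05 without adjustment there was 1 member in each, SPRY4 with DMSO and DUSP5 with lacZ shRNA, against 7.51% and 16.8% of all genes.

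Ranked by group mean, the highest group was 5 nM for DUSP1, DUSP4, DUSP5 and SPRY4, FLI1 shRNA for DUSP6, SPRY1, SPRY2 and SPRED1, 50 nM for DUSP10 and lacZ shRNA for SPRED2. The lowest was 50 nM for DUSP1, DUSP6, SPRY1, SPRY2, SPRY4 and SPRED1. In DUSP6 the top groups, FLI1 shRNA at 11.34 and 5 nM at 11.31, differ by less than the SE of a group difference, 0.08, and in SPRY1 the arrays of FLI1 shRNA (mean 8.92) and 5 nM (mean 8.71) overlap. In SPRY4 no neighbours overlap, in the order 5 nM, FLI1 shRNA, lacZ shRNA, untreated, DMSO and 50 nM. Among the controls this says little, as 46.5% of all genes do not overlap between lacZ shRNA and untreated and 41.1% between DMSO and untreated. Neither of these differences was called in SPRY4 (0.065 and −0.24). In SPRED2 the lacZ shRNA, DMSO and untreated arrays (10.88 to 11.04) overlap and the means of the rest step down, with FLI1 shRNA at 10.50, 50 nM at 9.31 and 5 nM at 9.16.

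**Figure D3:**
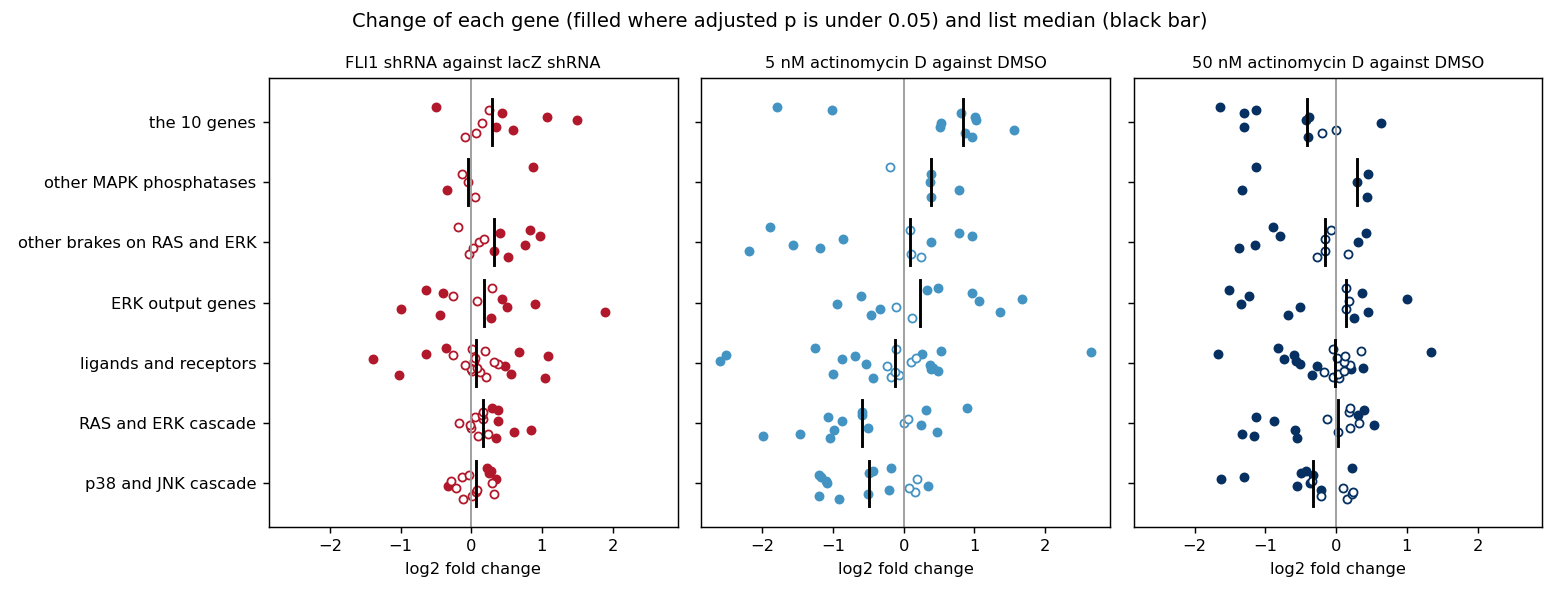
Log2 fold change (x axis) of each measured gene of 7 lists (rows), filled where the adjusted p is under 0.05, with the list median as a black bar, in the 3 main comparisons. The 10 genes have a median of 0.84 at 5 nM and −0.41 at 50 nM, while the RAS and ERK cascade has −0.59 and 0.02. These changes are not adjusted for gene span, which differs between the lists.

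The surrounding pathway was read from lists of related genes. After FLI1 shRNA no gene of the RAS and ERK cascade fell and 6 of 15 rose, among them GAB1 (0.84) and SHC1 (0.60), adaptors between receptors and RAS, MAPK3, which encodes an ERK kinase (0.38), and the RAF-activating scaffold SHOC2 (0.38). Of 11 other brakes 6 rose and none fell, led by ERRFI1, an inhibitor of EGF receptors (0.97), IL17RD, an inhibitor of FGF signalling (0.83), RASAL2, which inactivates RAS (0.76), and SPRY3 (0.53). The medians were 0.17 and 0.32.

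Genes at both ends of the pathway were mixed. Of 22 ligands and receptors 5 rose and 4 fell, with the receptors KIT at −1.39 and PDGFRB at 1.08 and the growth factors FGF1 at 1.05 and FGF18 at −1.02. Among 12 genes known as ERK outputs 5 rose and 4 fell, with PHLDA1 at 1.89, CCND1, or cyclin D1, at −0.99, the ephrin receptor EPHA4 at 0.90 and MYC at −0.64. Of 15 genes of the p38 and JNK cascade 4 rose and 1 fell, with changes of at most 0.35 in size. Of 5 other MAPK phosphatases DUSP16 rose (0.88) and DUSP7 fell (−0.34), a fall not called after ribosomal protein centring.

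At 5 nM most genes of both kinase cascades fell. Of 15 RAS and ERK cascade genes 9 fell and 4 rose (median −0.59), with the RAS exchange factors SOS1 (−2.0) and SOS2 (−1.47), the scaffold KSR1 (−1.07) and the adaptor GRB2 (−1.05) lowest. Of 15 p38 and JNK genes 11 fell and 1 rose, led by MAPK9, a JNK kinase (−1.20), and MAP3K5 (−1.20). Of 5 other phosphatases 4 rose, DUSP7 (0.79), DUSP9 (0.39), DUSP2 (0.38) and DUSP8 (0.37), and none fell (1 higher and 1 lower after ribosomal protein centring). The other brakes held 5 falls and 3 rises of 11, with NF1, the partner of the SPRED proteins, at −2.18, the receptor inhibitor LRIG1 at −1.90, RASAL2 at −1.56 and RASA2 at −1.18. Over all genes 30.3% rose and 23% fell. Among the genes named here SOS1, SOS2, KSR1 and MAP3K5 span 143, 115, 170 and 236 kb. NF1, LRIG1, RASAL2 and RASA2 span 283, 122, 385 and 128 kb. Of genes of 100 kb or more with a mean log2 signal over 8, 91.3% were lower at 5 nM. GRB2 and MAPK9 span 87.6 and 58.9 kb, and of such genes of 30 to 100 kb 57% were lower. The part of gene length in these lists was not tested.

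Ligands, receptors and ERK outputs held both rises and falls at 5 nM. The EGF-family ligand HBEGF rose by 2.66 while the receptor IGF1R (−2.60) and the ligands PDGFC (−2.52) and NRG1 (−1.26) fell, in all 7 rises and 8 falls of 22 (1 and 13 after ribosomal protein centring). IGF1R, PDGFC and NRG1 span 316, 211 and 1130 kb, and HBEGF spans 13.8 kb. Of 12 ERK outputs 6 rose and 4 fell, with IER3 (1.68), PHLDA1 (1.37) and the AP-1 genes FOSL1 (1.07) and FOS (0.96) largest. Ribosomal protein centring gave 4 of these 12 outputs higher and 6 lower, and 1 RAS and ERK cascade gene higher and 11 lower, so the direction of the output list at 5 nM depends on the scaling.

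Most ERK output genes were lower at 50 nM than at 5 nM. Of 12 ERK outputs 10 were lower at 50 nM than at 5 nM and 1 higher (6 and 2 after ribosomal protein centring), with MYC at −1.86, PHLDA1 at −0.91, FOSL1 at −0.88 and IER3 at −0.68. Against DMSO 5 of them fell and 4 rose (5 and 2 after that centring), with MYC (−1.52), EPHA4 (−1.34), EGR1 (−1.23) and IER3 (1.00) largest. DUSP7 (−1.33) and DUSP16 (−1.13) fell against DMSO, and the other 3 phosphatases rose by 0.30 to 0.44, none of these 3 after ribosomal protein centring. Of the cascade 6 of 15 fell and 3 rose, with SOS2 (−1.33), SOS1 (−1.17), KSR1 (−1.13) and SHOC2 (−0.87). Of 11 other brakes 4 fell and 2 rose, with RASA2 (−1.38), RASAL2 (−1.14), LRIG1 (−0.89) and ERRFI1 (−0.80), and 7 fell and 1 rose after ribosomal protein centring. Of 15 p38 and JNK genes 8 fell and 1 rose (10 and 0 after that centring), with the upstream kinases MAP3K1 (−1.63) and MAP3K4 (−1.31) lowest, and of 22 ligands and receptors 8 fell, led by VEGFA (−1.68), and 3 rose, led by HBEGF (1.34). Over all genes 23.3% fell and 25.8% rose at 50 nM.

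Among all 4289 genes whose group means differed by over 1 log2 unit, the patterns most like 3 of the members were sought over the 12 arrays. For DUSP1 they were ZNF574 (Pearson r = 0.996), KCTD2 (0.995) and UTP25 (0.994), each up at 5 nM and down at 50 nM. For DUSP6 they were SLC35C1 (0.987), ZNF791 (0.985) and LRIF1 (0.985), and for SPRY4 they were ZNFX1 (0.99), TRAF6 (0.985) and DUSP6 (0.985). Within the 10 genes DUSP1 ran closest to DUSP4 (0.914), SPRY1 to SPRY2 (0.895) and SPRED1 to SPRED2 (0.907). The dim DUSP10, at 3.73 to 4.81 over all arrays, ran opposite to SPRED2 (−0.905). The 12 arrays are 6 groups of 2, so these values describe how group means move together and carry no test.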

How the data were processed

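RNA of A673 cells was hybridised to Affymetrix HuGene 1.0 ST arrays, 12 in all. The deposited values are log2 signals made by the authors with background correction and RMA normalization in affy (version not given in the sources used here), and 0 value columns were left unused. Rows with 1 gene symbol, 19158 of 32321, entered the tests, and for 637 genes with several probe sets the one of highest mean was taken. All 18404 genes were fitted on the 12 arrays with a mean per group in limma 3.58.1 (R 4.3.3), with Benjamini-Hochberg adjustment over all genes. "Rose" and "fell" mean an adjusted p under 0.05, and the study's own thresholds were a fold over 2 and an adjusted p under 0.01. The fit was tested on simulated data. Gene spans and promoters come from RefSeq (GRCh38.p14).

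The members and gene lists were chosen with earlier results of these data known. All 10 members are named, with up to 4 genes of largest change among those called per list and comparison, the 3 nearest patterns of DUSP1, DUSP6 and SPRY4, and FLI1 and EWSR1. List genes without a probe set of their own were not analysed here. Alternatives were a fit of each comparison's arrays alone, a replicate block, leaving out genes below the 40th percentile of level, averaged probe sets, repeated quantile normalization, centring on ribosomal protein genes, trended robust moderation, leaving out each array, the study's thresholds and removal of the length trend. Its removal among genes with a log2 signal over 8 alone was chosen after seeing the data.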

Additional observations from a re-analysis of the deposited data

Results flagged for a closer look

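In 6 members the response to FLI1 shRNA (against lacZ shRNA) and that to 5 nM actinomycin D (against DMSO) differed by limma's test of the difference itself. Of the 10 members 2 were above, against 22.8% of all genes, and 4 below, against 23.7%. For the nuclear phosphatases the difference was −1.04 in DUSP1 (SE 0.10, adjusted p = 7.84e-06), with effects of −0.08 and 0.96. It was −0.97 in DUSP5 (SE 0.11, adjusted p = 2.59e-05), where both treatments raised the gene, by 0.59 and 1.57. In DUSP4 it was −0.80 (SE 0.19, adjusted p = 0.00633), with effects of 0.06 and 0.86.

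SPRY4, raised by both treatments, had a difference of −0.39 (SE 0.13, adjusted p = 0.0291). SPRED2, lowered by both, had 1.29 (SE 0.11, adjusted p = 3.72e-06), with effects of −0.49 and −1.79. In SPRED1 it was 1.26 (SE 0.19, adjusted p = 0.000319), with effects of 0.24, not called, and −1.02.

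After ribosomal protein centring the differences were −0.60 in DUSP1 (adjusted p = 0.00057), −0.53 in DUSP5 (adjusted p = 0.00174), 1.74 in SPRED2 and 1.71 in SPRED1, and those of DUSP4 (−0.35, adjusted p = 0.183) and SPRY4 (0.06, adjusted p = 0.689) did not pass. SPRY4 also missed the threshold when any of 6 single arrays was left out. The shRNA groups are labelled 48 h and the drug groups 24 h, so agent and time cannot be told apart here.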

How the results depend on the processing

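With the study's thresholds the counts of members were 2 higher and 0 lower after FLI1 shRNA, 3 higher at 5 nM, 0 higher and 4 lower at 50 nM, and 1 lower in the difference between knock-down and 5 nM effects. With dim genes left out 0 were higher at 50 nM, because DUSP10 was not tested. With the length trend of genes with a log2 signal over 8 removed, chosen after seeing the data and run on 6 members, 3 were higher and 1 lower at 5 nM and 0 higher at 50 nM. In 50 nM against 5 nM, repeated quantile normalization and ribosomal protein centring each gave 1 higher, SPRED2. That centring gave 4 higher and 2 lower in the difference, and turned SPRY4 there to 0.0617. It put the median of all genes at 0.06 for FLI1 shRNA, −0.26 for 5 nM, −0.05 for 50 nM, 0.25 for 50 nM against 5 nM, −0.15 for DMSO, −0.18 for lacZ shRNA and 0.32 for the difference. Over all genes it gave 3755 higher and 1224 lower for FLI1 shRNA (2691 and 1707 as deposited), 1574 and 8654 for 5 nM (5581 and 4234), 1765 and 5490 for 50 nM (4741 and 4283), 8382 and 2939 for 50 nM against 5 nM (3973 and 4253), 91 and 4454 for lacZ shRNA (150 and 416) and 8164 and 1041 for the difference (4203 and 4366).

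Leaving out 1 array gave 4 to 5 members higher and 1 lower for FLI1 shRNA, 7 to 8 higher and 2 lower for 5 nM, 1 higher and 5 to 6 lower for 50 nM, 0 higher and 7 lower between doses, 2 to 3 higher and 3 to 4 lower in the difference, and 0 for both controls. In the difference SPRY4 lost its call without 5 nM array 2, DMSO array 2 or any shRNA array (−0.27 to −0.40, adjusted p = 0.0561 to 0.104). DUSP10 gained one without lacZ shRNA array 1 (−0.62, adjusted p = 0.0143) and SPRY1 without 5 nM array 2 (0.66, adjusted p = 0.0373). At 50 nM SPRY1 also missed the threshold after repeated quantile normalization (−0.44, adjusted p = 0.0633), and so did DUSP10 at 5 nM (0.38, adjusted p = 0.057). Over all settings 107 of 109 values of single members for FLI1 shRNA, 118 of 125 for 5 nM and 117 of 125 for 50 nM kept direction and side of the threshold.

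Replicate numbers did not pair the arrays in 1 common direction. Of 15 pairs of groups, deviations of same-numbered arrays correlated over 0.1 in 6 and under −0.1 in 7 (−0.453 to 0.335). The signs were ordered, as lacZ shRNA, 5 nM, 50 nM and DMSO correlated positively with each other (0.049 to 0.335). FLI1 shRNA and untreated correlated negatively with all of these (−0.453 to −0.021) and at 0.17 with each other. A block on replicate number cannot take out such a shared deviation, and its source was not tested. With the replicate number as a block, all-gene counts were 2568 higher and 1635 lower for FLI1 shRNA, 5471 and 4192 for 5 nM, 4595 and 4247 for 50 nM, and 106 and 251 for lacZ shRNA. Among members the block changed the call of SPRY1 at 50 nM only (−0.43, adjusted p = 0.0528), leaving 6 lower. Counts for lacZ shRNA against untreated also moved with a fit of its arrays alone (51 and 94), dim genes left out (325 and 941) and trended robust moderation (372 and 931), and those for DMSO (1 and 0) became 3 and 8 without dim genes, 14 and 19 with trended robust moderation and 1 and 23 with ribosomal protein centring. The 2 arrays per group limit all of these, and the arrays give no counts from which a depth could be read.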

Other observations

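FLI1 had 8.50 and 8.55 at 5 nM and 7.71 and 7.60 at 50 nM, against 8.59 and 8.61 with DMSO. EWSR1 had 8.29 and 8.33 with FLI1 shRNA, against 8.58 and 8.62 with lacZ shRNA (adjusted p = 0.0166, limma), and stood at 8.28 and 8.35 at 5 nM and 8.76 and 8.87 at 50 nM, against 8.63 and 8.60 with DMSO.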
